A study of Mus musculus with 12 samples.

Results

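The 10 genes described here belong to the growth hormone and Igf1 axis of the liver: the receptor Ghr, the transducer Stat5b, the feedback inhibitors Socs2 and Cish, the repressor Bcl6, the secreted growth factor Igf1, its carrier subunit Igfals and the binding proteins Igfbp1, Igfbp2 and Igfbp3. They were taken by name from a table of 56205 mouse genes, of which 24871 held at least 1 count, and all 10 passed the low-count filter that left 13416 genes for testing. The measurements were liver RNA profiles of 12 ob/ob mice, 1 poly(A)-selected library a mouse. The ob mutation removes leptin, the satiety hormone of fat, and leaves the animals obese. All 12 carried it, ate standard chow and were stated to be male, and the study's methods describe them as young adults on the B6 background. The 6 mice of the FLO group had chow alone. The name of the fibrotic group comes from the sample titles, and fibrosis itself was not assessed here. The study describes ob/ob mice given ethionine as a model of steatosis (fat in the liver) and inflammation. The 6 mice of the fibrotic group also had DL-ethionine, an ethyl analogue of methionine that is toxic to the liver, at 0.165% in the drinking water for 2 weeks. Another label of the same mice gives an injection of 0.15%, and the study's methods give the lower dose in drinking water for a shorter time, so the sources disagree on route, dose and duration.

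Growth hormone is released by the pituitary and binds its receptor on hepatocytes, where the kinase Jak2 phosphorylates the transcription factor Stat5b. Stat5b then switches on Igf1, the growth factor that the liver sends into blood, together with Igfals, Socs2 and Cish. The Socs2 and Cish proteins dampen the receptor, and Bcl6 represses many of the same targets. In blood most Igf1 travels in a complex with Igfbp3 and the product of Igfals, whereas Igfbp1 is a hepatocyte product held down by insulin and raised by fasting and by cell stress. In rodents, pulses of growth hormone in males and a steadier supply in females also set the sex difference of many liver enzymes.

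Libraries held between 17815568 and 24814263 counts, and the totals did not differ between groups beyond their spread (two-sided exact permutation test, p = 0.115). The share of mitochondrial counts was lower in fibrotic livers (6.49% ± 1.15, SD, n = 6) than in FLO livers (8.62% ± 1.09, n = 6; exact permutation test, p = 0.0108). The factor by which edgeR scales each library for composition (TMM) also differed. It was 1.066 ± 0.087 in fibrotic and 0.941 ± 0.019 in FLO livers (exact permutation test, p = 0.00216). CPM and fold changes depend on that scaling, and values scaled by total counts alone are given below. One library went against its label. FLO replicate 3 held 3773 counts of Xist, made from the inactive X chromosome, and 4 counts of the Y-linked Ddx3y, while the other 11 libraries held 0 to 4 counts of Xist and 556 to 977 of Ddx3y. It was kept in its labelled group, and results that rest on it are also given without it. Summed hepatocyte markers ran from 72868 to 87054 CPM (counts per the usual unit of library size, normalized for composition by edgeR) in FLO and from 53967 to 86147 CPM in fibrotic livers, and all 8 markers of this list were detected.

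In all, 4 of the 10 genes fell and 1 rose in fibrotic livers. Ghr, Stat5b, Bcl6 and Igf1 were lower, Igfbp1 was higher, and Socs2, Cish, Igfals, Igfbp2 and Igfbp3 did not pass the test. Not passing does not show that a gene was unchanged. In simulated counts the same fit missed many 2-fold changes. Those counts gave every gene the same dispersion and changed far fewer genes than were called here. The miss rate therefore does not carry over to these genes. A gene was called when edgeR's quasi-likelihood test gave an adjusted p of 0.01 or less with a log2 fold change beyond 0.5 in either direction. The same rule called 29.9% of all tested genes, with 15.9% higher and 14.0% lower, so ethionine livers differed widely from FLO livers. The median log2 fold change was -0.09 over the 10 genes and 0.03 over all tested genes. FLO and fibrotic livers did not overlap in TMM-scaled CPM for Ghr, Stat5b and Igf1, which is 3 of 10 genes beside 30.4% of all tested genes. As a share of library totals, Ghr still did not overlap, while Stat5b and Igf1 did. With 5 of 10 called and 3 of 10 without overlap, nothing is read from the list as a whole, and the results below concern single genes. Without FLO replicate 3, 28.9% of genes were called, and 3 of the 10 kept the call, again Ghr, Stat5b and Igf1.

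**Figure D1:**
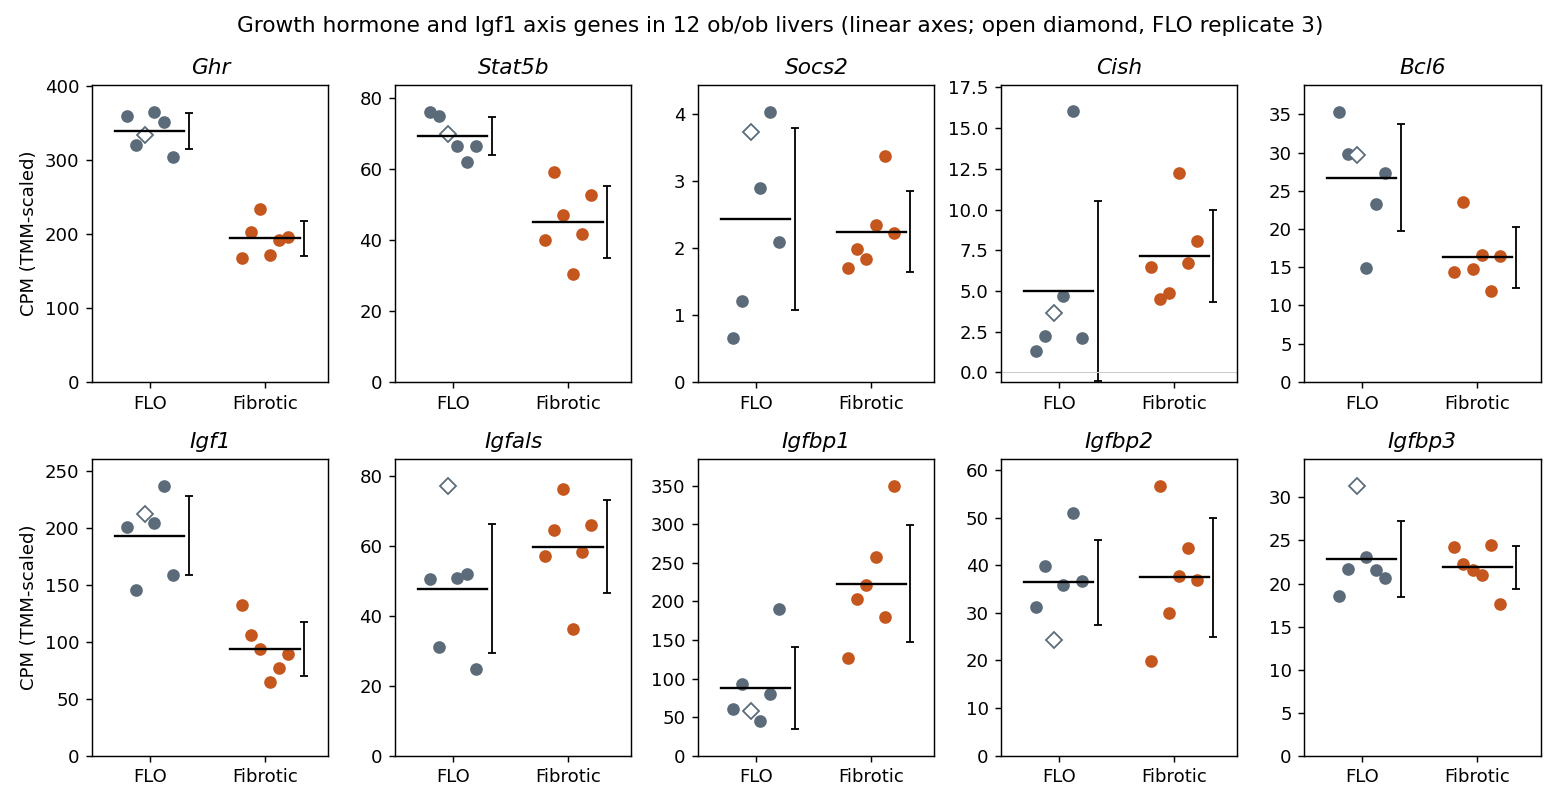
CPM of each gene (vertical axes, linear and starting at 0 except for Cish, whose SD bar reaches below it) in 6 FLO and 6 fibrotic livers; horizontal lines are means, bars are SD, and the open diamond is FLO replicate 3. For Ghr, Stat5b and Igf1 every fibrotic liver lies below every FLO liver on this TMM-scaled axis, while Cish ranges from 1.31 to 16.1 CPM within the FLO group. As a share of library totals, Stat5b and Igf1 overlap narrowly.

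Ghr, which encodes the growth hormone receptor (chromosome 15, 3317760 to 3583492, minus strand, GRCm38), was the most even of the genes within the FLO group. It ran from 303 to 364 CPM in FLO livers, with a median of 342 CPM, and from 168 to 233 CPM in fibrotic livers, with a median of 193 CPM. The lowest FLO liver was above the highest fibrotic liver. Ghr fell by 0.81 on the log2 scale (SE 0.09, adjusted p = 4.15e-06), which is 1.75-fold lower, and all 6 fibrotic livers lay below all FLO livers (exact permutation test, p = 0.00216, the smallest that 6 against 6 allows). The value without FLO replicate 3 was also -0.81.

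Stat5b, the transducer downstream of the receptor (chromosome 11, 100780731 to 100850724, minus strand), ran from 61.9 to 76.1 CPM in FLO livers, with a median of 68.1 CPM. In fibrotic livers it ran from 30.5 to 59.2 CPM, with a median of 44.2 CPM. The groups did not overlap in TMM-scaled CPM, and fibrotic replicate 4 was the lowest of all. As a share of library totals they overlapped narrowly. Fibrotic replicate 2 held 1162 Stat5b reads of 20352675 counts, just above FLO replicate 5 with 1045 of 18332686. Stat5b fell by 0.62 on the log2 scale (SE 0.13, adjusted p = 0.000872), and the exact permutation test gave p = 0.00216. With libraries scaled by total counts alone, Stat5b stood at -0.46 and was not called. That scaling moved the median of all genes to 0.20 and raised the share of higher calls among all calls from 53.3% to 71.8%, so that Stat5b lay further below the median gene than 0.46.

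Igf1, the liver's main endocrine growth factor (chromosome 10, 87858265 to 87937042, plus strand), had the largest decrease of the 10. It ran from 145 to 237 CPM in FLO livers, with a median of 203 CPM, and from 64.6 to 132 CPM in fibrotic livers, with a median of 91.9 CPM. Again no fibrotic liver reached the lowest FLO liver in TMM-scaled CPM. As a share of library totals the groups overlapped narrowly. Fibrotic replicate 1 held 2727 Igf1 reads of 19568186 counts, just above FLO replicate 2 with 2530 of 18275320. Igf1 fell by 1.04 on the log2 scale (SE 0.16, adjusted p = 7.95e-05), which is 2.06-fold lower (exact permutation test, p = 0.00216). In whole tissue, fewer cells of a type and less RNA per cell cannot be told apart, and this holds for each gene here. Of 8 hepatocyte markers, 2 were called higher and 2 lower, and the median of their summed CPM was 82083 in FLO and 64543 in fibrotic livers. Most of that sum came from 1 marker that was not called (adjusted p = 0.0803). Its mean was 65410 CPM in FLO and 52922 CPM in fibrotic livers, so the sum does not describe the whole list. The part of the shift in summed CPM in the lower Ghr, Stat5b and Igf1 was not tested.

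The calls of Ghr, Stat5b and Igf1 were kept in all 12 fits that each left out 1 library. Over those fits the log2 fold change ran from -0.86 to -0.76 for Ghr, from -0.71 to -0.52 for Stat5b and from -1.16 to -0.94 for Igf1. The order of the 3 decreases was not tested. Reads of Igf1 per read of Ghr, a ratio within each library that no scaling changes, ran from 0.454 to 0.677 in FLO and from 0.378 to 0.787 in fibrotic livers, so these ranges overlapped. The highest fibrotic ratio was in replicate 1.

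Bcl6, a transcriptional repressor that shares binding sites with Stat5 (chromosome 16, 23965052 to 23988852, minus strand), ran from 14.9 to 35.3 CPM in FLO livers, with a median of 28.5 CPM. In fibrotic livers it ran from 11.9 to 23.5 CPM, with a median of 15.6 CPM. The ranges overlapped, with FLO replicate 4 at the low end of its group, and 3 fibrotic livers lay below all FLO livers. Bcl6 fell by 0.71 on the log2 scale (SE 0.19, adjusted p = 0.00571), and the exact permutation test gave p = 0.0152. The call stood close to its threshold. It was lost in 9 of 12 fits without 1 library, those without fibrotic replicate 1, 3, 4, 5 or 6 and those without FLO replicate 1, 2, 3 or 6, with adjusted p from 0.0117 to 0.0152 and a log2 fold change never above -0.62. It was -0.68 without FLO replicate 3 (adjusted p = 0.0125).

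Neither feedback gene passed the test, and both varied widely among FLO livers. Cish (chromosome 9, 107296026 to 107302784, plus strand) ran from 1.31 to 16.1 CPM in FLO livers, with a median of 2.94 CPM, a 12.2-fold range. In fibrotic livers it ran from 4.48 to 12.3 CPM, with a median of 6.60 CPM. All 6 fibrotic livers lay above the FLO median, yet FLO replicate 5 was the highest of all 12. The log2 fold change was 0.52 (SE 0.53, adjusted p = 0.426, exact permutation test p = 0.123). Leaving out FLO replicate 5 alone took it to 1.34 (adjusted p = 0.00390), which would be a call, and no other omission did so. Cish read counts were 24 to 271 a library.

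Socs2 (chromosome 10, 95385362 to 95417180, minus strand) had the lowest counts of the 10 genes, 12 to 87 a library. It ran from 0.656 to 4.03 CPM in FLO livers, with a median of 2.49 CPM, a 6.14-fold range, and from 1.70 to 3.37 CPM in fibrotic livers, with a median of 2.11 CPM. The fibrotic values lay inside the FLO range. The log2 fold change was -0.12 (SE 0.35, adjusted p = 0.790), and its 95% interval from -0.80 to 0.56 still holds a decrease of the size seen for Stat5b. It was 0.05 without FLO replicate 3, so no direction can be given. FLO replicate 5 was highest and FLO replicate 1 lowest in its group for both Cish and Socs2, and FLO replicate 5 was also the highest for Igf1.

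The core Stat5 motif, TTCNNNGAA, was searched on both strands of the RefSeq promoter windows, each 250 bases before and 50 bases after an annotated start site. Windows were held for 9 of the 10 genes, 15 windows in all. The motif was present in 3 genes, Cish, Bcl6 and Igfals, and in 8.30% of 32851 windows of all genes, or 9.55% of genes. The windows below show it at the feedback gene, the repressor and the carrier, with matches in capitals, 5′ to 3′ on the strand of the gene, GRCm38.p6. The Cish window lies at chr9:107296409-107296708 on the plus strand, and its 2 matches begin at bases 1 and 12 from the start site.
Cish: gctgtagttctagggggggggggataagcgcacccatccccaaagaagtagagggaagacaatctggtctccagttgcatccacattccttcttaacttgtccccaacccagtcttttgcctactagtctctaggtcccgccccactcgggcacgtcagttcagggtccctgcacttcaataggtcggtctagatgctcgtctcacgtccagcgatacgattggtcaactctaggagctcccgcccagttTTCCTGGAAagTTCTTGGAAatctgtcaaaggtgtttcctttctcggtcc
Another Bcl6 window, at chr16:23988803-23989102, held 1 match at base -118 and is not shown. The Bcl6 window shown lies at chr16:23981234-23981533 on the minus strand, with matches that begin at bases -168, -122 and -88.
Bcl6: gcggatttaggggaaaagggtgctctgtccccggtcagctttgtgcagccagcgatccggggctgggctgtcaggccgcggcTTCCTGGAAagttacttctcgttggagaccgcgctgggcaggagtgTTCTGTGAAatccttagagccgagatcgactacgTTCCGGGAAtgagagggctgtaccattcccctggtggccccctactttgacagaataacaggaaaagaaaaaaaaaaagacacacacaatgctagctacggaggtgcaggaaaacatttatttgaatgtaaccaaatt
Of the Igfals windows not shown, that at chr17:24877594-24877893 held 1 Stat5 match at base -236 and that at chr17:24878497-24878796 held none. The Igfals window shown lies at chr17:24877981-24878280 on the plus strand, with 1 Stat5 match at base -58. In capitals near its left end is 1 match on the opposite strand to the Foxo motif GTAAACA, which 3.65% of all windows hold.
Igfals: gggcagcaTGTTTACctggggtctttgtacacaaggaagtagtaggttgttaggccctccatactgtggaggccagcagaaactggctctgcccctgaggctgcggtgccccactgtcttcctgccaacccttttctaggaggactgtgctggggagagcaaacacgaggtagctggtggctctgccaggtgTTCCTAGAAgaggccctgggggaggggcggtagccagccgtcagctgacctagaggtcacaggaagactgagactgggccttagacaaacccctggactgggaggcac
Of these 3 genes only Bcl6 was called, and no window of Ghr, Stat5b, Igf1, Igfbp1, Igfbp2 or Igfbp3 held the motif. A match describes letters in a window and does not show binding, and these windows leave out enhancers.

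Igfals encodes the acid-labile subunit that holds Igf1 and Igfbp3 in blood (chromosome 17, 24865997 to 24882010, plus strand). It ran from 24.7 to 77.2 CPM in FLO livers, with a median of 50.7 CPM, and from 36.3 to 76.1 CPM in fibrotic livers, with a median of 61.3 CPM. The groups overlapped over most of their range, and the highest FLO value was that of FLO replicate 3. The log2 fold change was 0.32 (SE 0.24, adjusted p = 0.286, exact permutation test p = 0.208). It was 0.51 without FLO replicate 3 (adjusted p = 0.0632), still not a call. Within each library, Igf1 reads per Igfals read ran from 2.76 to 6.45 in FLO livers and from 1.23 to 2.31 in fibrotic livers. These 2 ranges did not overlap, although Igfals itself was not called. Igf1 alone already did not overlap in TMM-scaled CPM. The ratio follows from the values of both genes and was not tested.

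Igfbp1, a circulating protein that binds Igf1 and limits its action (chromosome 11, 7197782 to 7202546, plus strand), was the 1 gene that rose. It ran from 45.0 to 191 CPM in FLO livers, with a median of 70.5 CPM, and from 127 to 350.0 CPM in fibrotic livers, with a median of 213 CPM. FLO replicate 6 stood high in its group, so the ranges overlapped, and 4 fibrotic livers lay above all FLO livers. The log2 fold change was 1.34 (SE 0.34, adjusted p = 0.00528), which is 2.54-fold higher, and the exact permutation test gave p = 0.00649. All 6 fibrotic livers lay above the FLO median. As with Bcl6, the call was near its threshold: it was lost in 7 of 12 fits, those without fibrotic replicate 3, 4 or 6 and those without FLO replicate 1, 2, 3 or 5, with adjusted p from 0.0101 to 0.0157, while the log2 fold change stayed between 1.17 and 1.73. It was 1.25 without FLO replicate 3 (adjusted p = 0.0119).

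The Igfbp1 window is shown because this gene carries the one increase. It lies at chr11:7197537-7197836 on the plus strand (GRCm38.p6), and the capitals mark CAAAACA, a motif of insulin response elements, at base -108. That motif was added to the search after the windows had been seen, and 6.28% of all windows hold it on either strand. The Foxo motif GTAAACA, which had been planned, was absent from this window and was found in 1 of the axis genes, Igfals.
Igfbp1: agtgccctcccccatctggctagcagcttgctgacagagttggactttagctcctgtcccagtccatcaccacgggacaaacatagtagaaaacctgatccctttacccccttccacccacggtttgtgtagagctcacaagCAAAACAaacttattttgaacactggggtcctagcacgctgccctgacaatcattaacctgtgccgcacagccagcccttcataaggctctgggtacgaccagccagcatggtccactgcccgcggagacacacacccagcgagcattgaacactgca

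Reads of Igfbp1 per read of Igf1 joined the rise and the fall in 1 value per library. The ratio ran from 0.220 to 1.20 in FLO livers, with a median of 0.320, and from 0.962 to 3.98 in fibrotic livers, with a median of 2.34. Only FLO replicate 6, at 1.20, passed the lowest fibrotic liver, replicate 1. The ratio follows from both genes' changes and was not tested again.

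**Figure D2:**
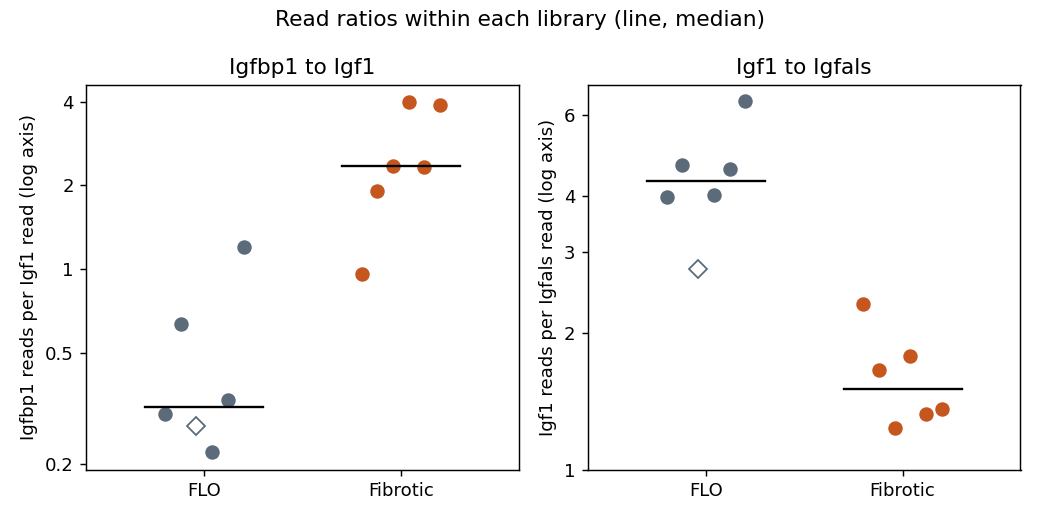
Reads of Igfbp1 per read of Igf1 (left) and of Igf1 per read of Igfals (right) in each library, on log axes; lines are medians and the open diamond is FLO replicate 3. The Igfbp1 to Igf1 ratio overlaps between groups through 1 FLO liver at 1.20, and the Igf1 to Igfals ratio does not overlap.

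Igfbp2 and Igfbp3 did not pass the test. Igfbp2, which binds both Igf1 and Igf2 (chromosome 1, 72824503 to 72852474, plus strand), ran from 24.3 to 51.0 CPM in FLO and from 19.9 to 56.7 CPM in fibrotic livers. It stood at 0.04 on the log2 scale (SE 0.22, adjusted p = 0.895), with a 95% interval from -0.39 to 0.47. Igfbp3, the main carrier of Igf1 in blood (chromosome 11, 7206086 to 7213923, minus strand), ran from 18.6 to 31.4 CPM in FLO and from 17.7 to 24.4 CPM in fibrotic livers. It stood at -0.06 on the log2 scale (SE 0.12, adjusted p = 0.676), and the 95% interval from -0.30 to 0.17 excludes a change of the size of Igf1's. Both turned sign without FLO replicate 3, to -0.06 for Igfbp2 and 0.05 for Igfbp3, and that library was the lowest of the FLO group for Igfbp2 and the highest for Igfbp3. Igfbp1 and Igfbp3 are neighbours on opposite strands with 3539 bases between them, and 1 was called and the other was not; the difference between their changes was not tested.

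**Figure D3:**
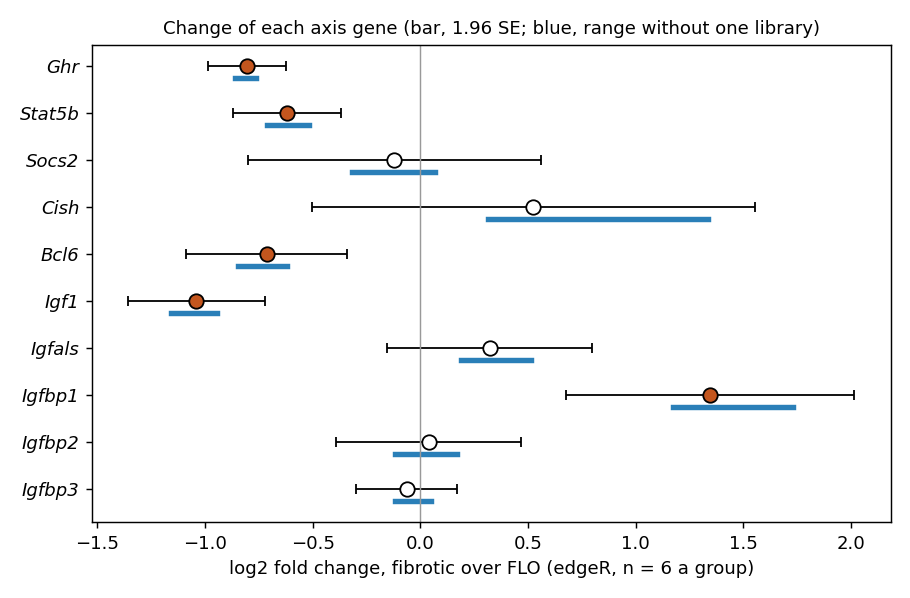
Log2 fold change of each gene, fibrotic over FLO, from edgeR (horizontal axis); black bars are 95% intervals, filled points are calls, and blue bars give the range over 12 fits that each left out 1 library. Igf1, Ghr, Bcl6 and Stat5b lie left of 0, Igfbp1 lies right of it, and Cish reaches 1.34 without FLO replicate 5.

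Around these genes, 6 lists of the pathway held 76 genes, of which 67 were tested and 21 were called, or 31.3% beside 29.9% of all genes. In growth hormone receptor signalling, 17 of 18 genes were tested, 1 was higher and 2 were lower, and the median log2 fold change was -0.11. Prlr, the prolactin receptor and a relative of Ghr, fell by 0.91 on the log2 scale (SE 0.16, adjusted p = 0.000297), and Irs2, an adaptor of the insulin receptor, fell by 1.02 (SE 0.24, adjusted p = 0.00254). Ptpn2, a phosphatase that acts on Jak and Stat proteins, rose by 0.60 (SE 0.14, adjusted p = 0.00260). Jak2, the kinase on the receptor, stood at 0.07 (adjusted p = 0.578), and Stat5a, the sister of Stat5b, at -0.11 (adjusted p = 0.313). Socs3, a further feedback inhibitor, stood at -0.16 (adjusted p = 0.725), and Socs1 was too low to test.

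Among the other Igf system genes, 10 of 16 were tested, 1 was higher and 2 were lower, with a median of -0.18. Igfbp4, a further binding protein, ran from 1769 to 1798 CPM in FLO livers and from 538 to 1369 CPM in fibrotic livers, and fell by 0.89 (SE 0.16, adjusted p = 0.000325). Igfbp5 fell by 1.49 (SE 0.25, adjusted p = 0.000205), from 15.8 CPM ± 4.26 to 5.63 CPM ± 2.06 (SD, n = 6 a group). Igf2r, which takes Igf2 from the cell surface to the lysosome, rose by 0.58 (SE 0.12, adjusted p = 0.000723). Igf1r, the Igf1 receptor, was low in liver and stood at -0.02 (adjusted p = 0.943), and Igf2 at -0.08 (adjusted p = 0.875).

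Of 14 liver transcription factors known to act on the axis, 1 was higher and 2 were lower, with a median of -0.05. Without FLO replicate 3, 2 of them were called. Cebpb, a factor of the acute phase, rose by 0.98 (SE 0.15, adjusted p = 6.26e-05). Onecut1, a growth hormone-responsive factor, fell by 0.89 (SE 0.22, adjusted p = 0.00361). Hnf4a, a main hepatocyte factor, stood at -0.08 (adjusted p = 0.536). Foxo1, which acts on Igfbp1, stood at 0.51 (adjusted p = 0.0123) and missed the threshold.

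Igfbp1 shares regulation by insulin through Foxo1 with a list of 8 genes. Of these 7 were tested, 1 was higher and 3 were lower, and the median was -0.51. Pdk4, a brake on glucose oxidation, rose by 2.35 (SE 0.52, adjusted p = 0.00287), the same direction as Igfbp1. Pck1, of glucose synthesis, fell by 1.08 (SE 0.19, adjusted p = 0.000270), Irs2 fell as above, and the stress gene Sesn3 fell by 0.51 (SE 0.12, adjusted p = 0.00278). Without FLO replicate 3, Sesn3 stood at -0.49 and missed the fold threshold, which left 3 calls in this list. G6pc, the last step of glucose release, stood at -0.52 (adjusted p = 0.0469) and was not called. The list therefore moved in both directions.

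The sex-biased genes that growth hormone pulses set in rodent liver also changed in both directions. Of 10 male-biased genes 9 were tested, 3 were higher and 1 was lower, with a median of 0.09. Elovl3, which elongates fatty acids, rose by 1.28 (SE 0.34, adjusted p = 0.00674), Slco1a1, an organic anion transporter, by 1.65 (SE 0.44, adjusted p = 0.00620) and Cyp4a12a by 1.50 (SE 0.42, adjusted p = 0.00942). Mup20, a urinary protein that carries pheromones, fell by 1.22 (SE 0.35, adjusted p = 0.00946). Without FLO replicate 3 only Mup20 kept its call, at -1.43, while Elovl3 stood at 1.17 (adjusted p = 0.0139), Slco1a1 at 1.59 (adjusted p = 0.0145) and Cyp4a12a at 1.50 (adjusted p = 0.0185), close to their values with all libraries. Leaving out both FLO replicate 3 and fibrotic replicate 4 gave 4 calls in this list. Members of the Cyp and Mup families have near-identical copies, so their counts are uncertain.

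All 12 female-biased genes were tested, 2 were higher and 3 were lower, and the median was -0.36. Cyp2a4, a steroid hydroxylase, rose by 2.69 (SE 0.34, adjusted p = 2.11e-05), and Cyp3a41a by 1.99 (SE 0.52, adjusted p = 0.00770). Cyp2b13 fell by 3.55 (SE 0.70, adjusted p = 0.00139), Cyp2b9 by 1.25 (SE 0.23, adjusted p = 0.000433) and the nuclear factor Tox by 0.68 (SE 0.20, adjusted p = 0.00900). Without FLO replicate 3, 6 were called, among them these 5, with Cyp3a41a at 2.69 and Cyp2b13 at -3.17. The median of -0.36 includes that library. Without it the middle of the list lay between Cyp17a1 at -0.03 and Acot3 at 0.15, so no direction can be given. Sult2a1 turned from -0.44 to 1.95 and was called in neither fit.

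FLO replicate 3 stood apart in the female-biased list as well as in Xist and Ddx3y. It was the highest FLO liver for 8 of 11 female-biased genes examined, and no other FLO liver was the highest for more than 1. Sult2a1, a hydroxysteroid sulfotransferase, stood at 274 CPM in FLO replicate 3 and at 0.118 to 29.8 CPM in the other 5 FLO livers. Cux2, a female-specific liver factor, stood at 4.24 CPM against 0.147 to 0.656 CPM. In the male-biased list it was the lowest FLO liver for 4 of 9 genes and the highest for 1, with Mup20 at 165 CPM against 503 to 1385 CPM. FLO replicate 5 had the opposite order: it was the highest FLO liver for 7 of 9 male-biased genes and the lowest for 8 of 11 female-biased genes. It was also the FLO liver with the highest Cish, Socs2 and Igf1. These counts by library were made after the values had been seen and carry no test.

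**Figure D4:**
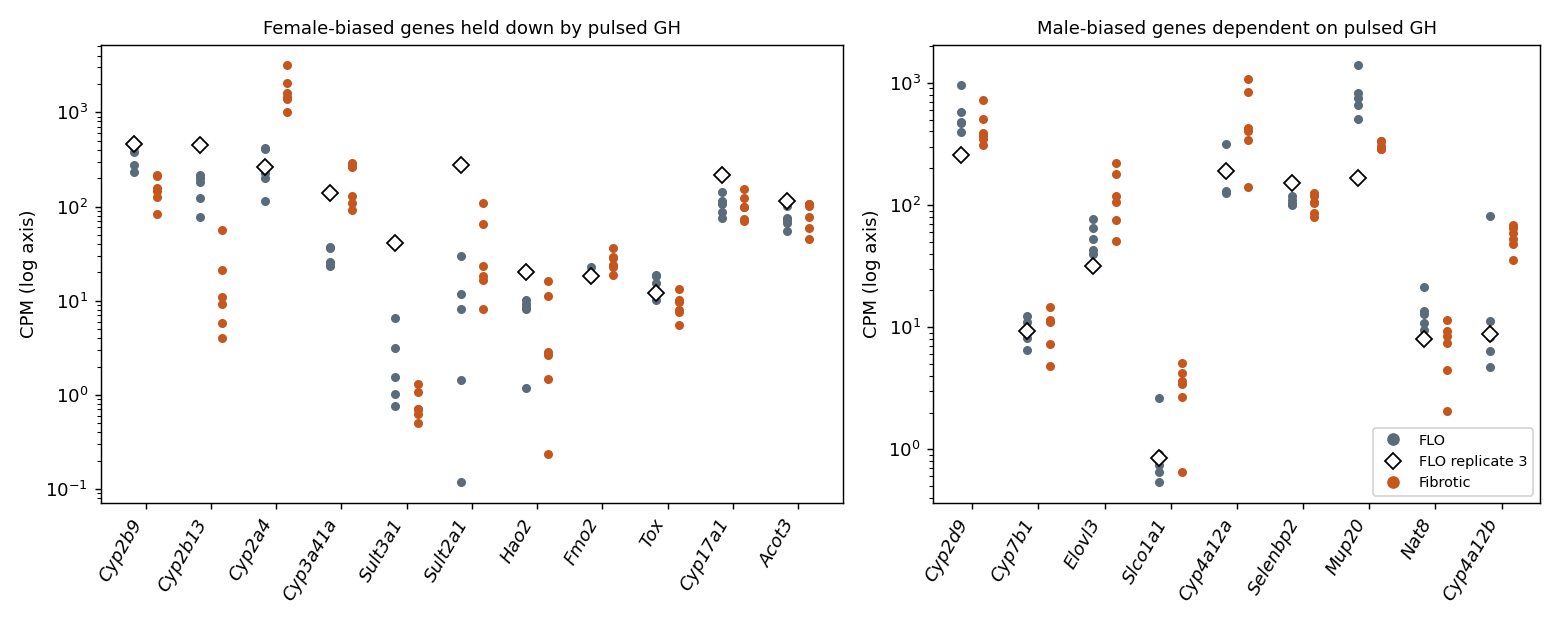
CPM (log axes) of 11 female-biased genes (left) and 9 male-biased genes (right) in each liver, FLO in grey, fibrotic in orange and FLO replicate 3 as the open diamond. The diamond is the highest FLO value for 8 of 11 female-biased genes.

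**Figure D5:**
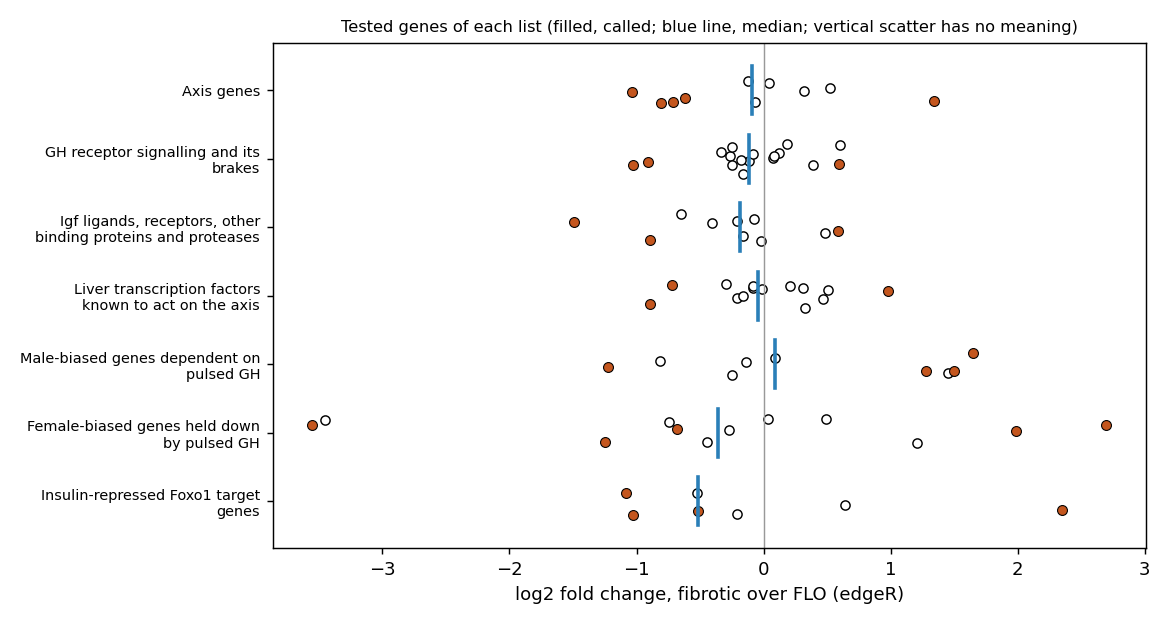
Log2 fold change, fibrotic over FLO, of the 10 axis genes and of the tested genes of 6 pathway lists (horizontal axis, 1 point a gene; vertical scatter has no meaning); filled points are calls and blue lines are medians. Every list holds calls on both sides of 0, and the medians run from -0.51 for the Foxo1 targets to 0.09 for the male-biased genes. All values include FLO replicate 3, and the negative median of the female-biased genes depends on it.

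Marker lists of other liver cells differed in their counts of calls, to be read beside 15.9% of all genes called higher and 14.0% lower. Of 8 Kupffer cell markers 6 were higher and none lower, with summed CPM of 143 to 185 in FLO and 212 to 400.4 in fibrotic livers. Without FLO replicate 3, 5 of these markers were called. Cholangiocyte markers summed to 47.5 to 88.8 CPM in FLO and 81.7 to 278 CPM in fibrotic livers, with 4 of 6 tested genes higher. Most of this sum came from 1 marker, with means of 60.5 CPM in FLO and 122 CPM in fibrotic livers. Sinusoidal endothelial markers summed to 256 to 291 CPM in FLO and 202 to 254 CPM in fibrotic livers, with 1 of 8 lower. Stellate cell markers summed to 224 to 314 CPM in FLO and 253 to 370.0 CPM in fibrotic livers, with 1 of 8 called higher and 0 called without FLO replicate 3. Lymphocyte markers summed to 1.36 to 3.85 CPM in fibrotic and 1.59 to 3.20 CPM in FLO livers, with 0 called of 1 tested, and of 3 tested neutrophil and monocyte markers 1 was higher, a call that was lost without FLO replicate 3. The part of these values in the changes of the 10 genes was not tested.

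Other genes followed a profile like that of Igf1, Igfbp1 or Socs2 over the 12 livers. Likeness was the root mean square difference in log2 CPM after each gene was centred on its mean, over 11159 genes. For Igf1 the closest were Cyp4f13 (0.184), Smlr1 (0.189) and Pih1d1 (0.190), beside a median of 0.654 over all genes. For Igfbp1 the closest included Asic5 (0.411) and Tnfaip8 (0.423), beside 0.944, and for Socs2 they were Gm18537 (0.371), Ccdc9b (0.395) and Nlgn2 (0.413), beside 0.727. These are descriptions of 12 libraries with no test, and they share the difference between the groups.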

How the data were processed

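Whole-liver RNA of 12 mice was measured, 1 library each. Groups and replicate numbers came from the sample titles. The authors deposited a count table, 1 row an Ensembl gene, with raw read counts. Submitters' processing notes name bcl2fastq, STAR 2.7.3a and mm10; the annotation and any use of strand in counting are not given in the sources used here. Of 56205 identifiers 51745 matched a symbol, and the others held 0.0587% of counts. Positions are those of GENCODE M21 on GRCm38, but 2122 identifiers belong to a newer series. Antisense genes overlapping Igf1, Cish and Bcl6 held at most 5 counts a library.

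Counts were fitted in R 4.3.3 with edgeR 4.0.16 (robust quasi-likelihood test, TMM, filterByExpr) and adjusted by the Benjamini-Hochberg method over all tested genes. SE is the absolute log2 fold change over the square root of F, and 95% intervals assume a normal distribution. The call threshold of 0.01 with 0.5 on the log2 scale is the study's. The fit was tested on simulated counts. It missed the first criterion set for it, on the share of all changed genes recovered, because many 2-fold changes were not called; after that was seen the criterion was replaced by one on 4-fold changes, which it met, and the fit was left as it was. CPM are edgeR's counts per TMM-normalized library size, which was summed over the tested genes. Single values were compared by two-sided exact permutation of log2 CPM (prior count 2) over 924 assignments. With 12 to 87 counts of Socs2 a library, low values have wide counting error. Every pair of libraries within a group differed by more than sampling noise (smallest chi-square per degree of freedom 11.1). The labels do not name litters or cages, so an effect of these cannot be told apart from that of the treatment. The p-values set the difference between groups against the spread between these mice.

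The members and the lists were chosen with earlier results of these data known. Named genes were all members, called list genes up to 4 a list by size, list genes needed for a role, Xist, Ddx3y and the 3 closest profiles of Igf1, Igfbp1 and Socs2. Some further list genes were named after their values were seen: Cux2, Sult2a1, Cyp17a1 and Acot3. A few genes that the rule or the lists include are not reported here by name, and are left out of the counts by library. Alternatives were other normalizations, filters, tools (DESeq2 1.42.0, limma-voom with limma 3.58.1), thresholds, a replicate block and leaving out libraries.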

Additional observations from a re-analysis of the deposited data

Results flagged for a closer look

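For 74 genes of the axis and its pathway lists, the distance of the highest or lowest liver from the next one was taken as a ratio to the whole spread of its group, in log2 CPM. The limit for 6 samples is 0.625. Of 148 groups 8 passed it, and chance would flag about 1 in 20, or 7.4. None was a group of the 10 axis genes. Xist and Ddx3y, examined apart, stood at 1.0 and 0.946 in FLO replicate 3. That library was also highest in Cyp3a41a (ratio 0.742, 140.2 CPM against 23.6 to 37.3 CPM in the others).

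Fibrotic replicate 4 was highest in Jak2 (0.632) and Irs2 (0.662) and lowest in Slco1a1 (0.676). It also had the lowest Igf1 and Stat5b and the highest Cish of the fibrotic livers. FLO replicate 5 was highest in Slco1a1 (0.680) and Cyp4a12b (0.695) and lowest in Hao2 (0.673). FLO replicate 2 was highest in Fmo2 (0.761). No cause of these values was tested.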

How the results depend on the processing

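Ghr and Igf1 kept their direction and call under all alternatives run. Scaling by total counts left 2 axis genes called lower, as Stat5b at -0.46 missed the fold threshold and Bcl6 at -0.54 the adjusted p (0.0187), and put Socs2 at 0.067 and Igfbp3 at 0.11. Without a low-count filter Igfbp1 was not called (adjusted p = 0.0202), which left 0 axis genes called higher, and Bcl6 was not called (adjusted p = 0.0152). DESeq2 and limma-voom called the same 5 axis genes, and limma-voom gave Socs2 as 0.064. An FDR of 0.05 with no fold threshold called 34 pathway genes in place of 21, and 6994 of all genes in place of 4012.

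Over fits without 1 library, the number of axis genes called higher ran from 0 to 1. The log2 fold change of Socs2 ran from -0.32 to 0.069, of Igfbp2 from -0.12 to 0.17 and of Igfbp3 from -0.12 to 0.048. In the exact test without FLO replicate 3, mean log2 CPM differed by -0.11 for Igfbp2 and 0.045 for Igfbp3. Leaving out both FLO replicate 3 and fibrotic replicate 4, a choice made after the data were examined, gave 0 higher calls, with Socs2 at 0.043, Igfbp2 at -0.050 and Igfbp3 at 0.068. The causes of these shifts were not tested.

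Over all tested genes, samples with the same replicate number did not deviate together (correlations of -0.16 to 0.10). Such correlations cannot exclude a pairing that touches some genes. With the replicate block, Socs2 stood at 0.025, the other 9 axis genes kept their direction and call, and 3780 of all genes were called. The SE was smaller with the block for every axis gene except Ghr and Igf1, for example Igfbp1 (0.207 beside 0.342) and Igfbp2 (0.135 beside 0.219). It was larger for Ghr (0.107 beside 0.092) and Igf1 (0.168 beside 0.161). Counting error is widest for Socs2, at 12 to 87 counts a library.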
